A study of Arabidopsis thaliana with 6 samples.

Results

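The genes described here are 7 Aux/IAA genes of Arabidopsis thaliana, which encode repressors of the auxin response, and LBD29, which encodes a transcription factor that acts downstream of auxin. They were taken as every probe set annotated with a single gene whose symbol is IAA followed by a number, plus LBD29. This gave 8 genes (IAA18, IAA20, IAA29, IAA30, IAA31, IAA33, IAA34 and LBD29), each with 1 probe set, of 13513 probe sets with a single gene and 22746 probe sets in all once controls are left out. Of the 29 loci of the Aux/IAA family, these 7 have a matched probe set, and the other loci are not analysed here.

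The samples were whole seedlings of ecotype Columbia glabra, raised in the dark at 23 °C on medium to which no sucrose had been added, and were 4 days old when treated. Treatment was 6 h of continued air, of anoxia, or of anoxia together with 90 mM sucrose, and no group received sucrose in air. Every one of the 3 groups was read on 2 Affymetrix arrays, named experiment 1 and experiment 2, with RNA of 4 cultures pooled per array. A signal is the deposited linear intensity of a probe set, the set of short oligonucleotides that reports 1 transcript.

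Aux/IAA proteins bind auxin response factors and recruit a corepressor to their target genes. Auxin promotes binding of an Aux/IAA protein to its receptor, an F-box protein, which leads to degradation of the repressor and frees the response factor. Many Aux/IAA genes are themselves switched on by auxin, so that their transcripts are used as a readout of the response in growing organs such as the etiolated hypocotyl and the root. Whether the genes described here respond to auxin in these seedlings was not tested.

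The arrays differed in brightness and in quality. Median signal ran from 21.2 to 50.6, so raw signals are not directly comparable between arrays. Some of them are therefore also given as a multiple of the median of their array. Changes are differences between group means of log2(signal + 16), with arrays first centred at their medians, a scale on which changes of dim genes are understated. Between 26.1% and 43.6% of an array lay below a signal of 16, where the added constant outweighs the signal. The sucrose array of experiment 1 stood apart, with a ratio of the 3' to the 5' actin probe set of 21.6 against 1.70 to 4.24 on the other arrays, and with a GAPDH ratio of 7.61 against 1.38 to 2.42. The control for 25S ribosomal RNA separated the experiments, reading 167.5 (air), 1211.3 (anoxia) and 848.2 (sucrose) in experiment 1 and 4.2 to 12.5 in experiment 2, and its part in the changes was not tested. PORB, an enzyme of chlorophyll synthesis that is abundant in dark-grown seedlings, had signals from 522.3 to 3485.8. The 3 green tissue markers with a probe set, all of light-harvesting proteins, differed in level. LHCB4.1 had signals from 1498.6 to 5113.5, LHCB4.2 from 380.3 to 2648.1 and LHCB4.3 from 49.2 to 142.8. The numbers of the experiments recur in every group. They were treated as pairing the arrays in the changes within experiments and in fits with the experiment as a block, but not in the main fit.

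A probe set was tested where its mean lay at or above the 30th percentile, and 6 of the 8 genes were among the 15922 tested. IAA31 and IAA33 were not. IAA18, IAA20, IAA29 and IAA34 had means above the filter in every group, whereas LBD29 and IAA30 were above it in air and with sucrose but not under anoxia. Tests were made with limma over all tested probe sets, adjusted by the Benjamini-Hochberg method with a threshold of 0.05, without the experiment as a block unless it is named.

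Anoxia against air addressed the response to 6 h without oxygen. Under anoxia IAA29 and LBD29 fell, by 5.45-fold and 3.74-fold on the scale above, and the other 4 tested genes did not pass. The 2 genes that fell out of 6 tested stand beside a background of 0.126% of all tested probe sets called lower in this comparison (1.58% with the experiment as a block, where the same 2 genes passed). The 6 changes all lay below 0 and had a median of -0.50, where the median over all tested probe sets was 0.08 and 42.5% of them lay below 0. Groups did not overlap for 4 of the 6 genes, all lower under anoxia, against 14.9% of all tested probe sets. Both experiments moved downward for 5 of the 6 genes, against 24.2% of all. The genes were chosen with earlier results of these data known. Such counts and shares, here and in the other comparisons, are therefore description, and the genes were not tested as a set.

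**Figure D1:**
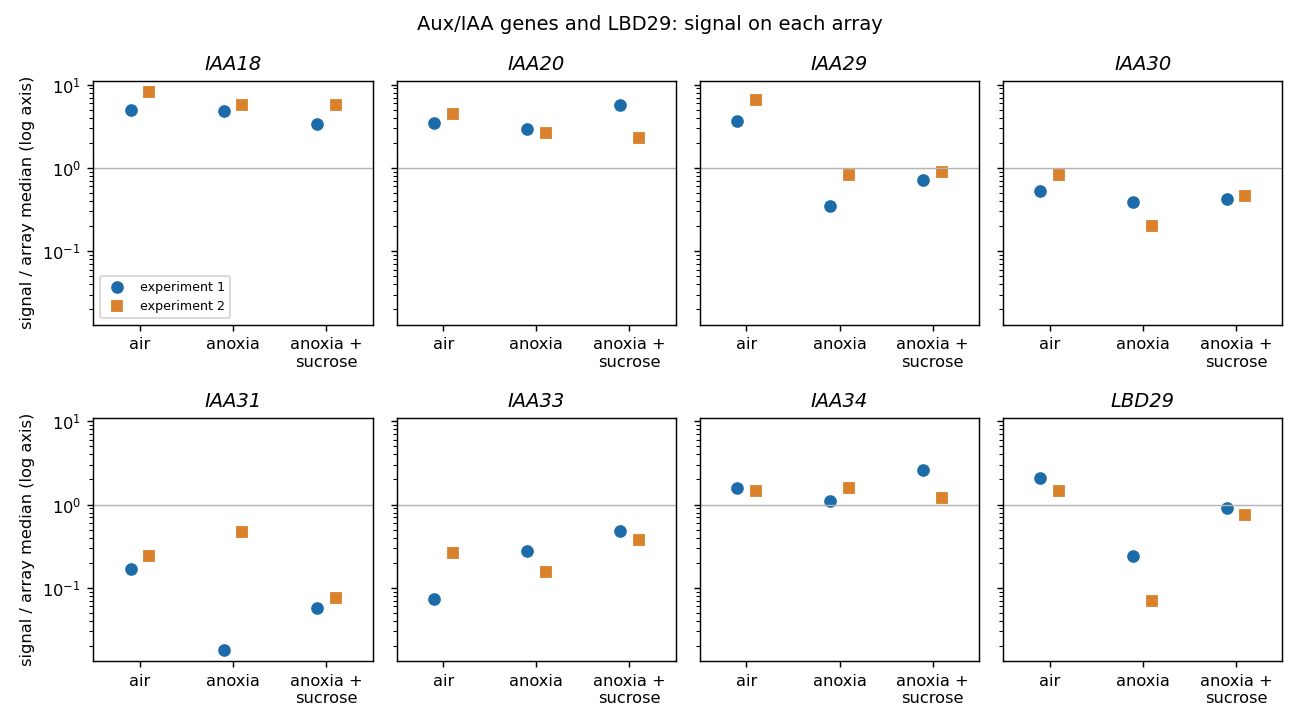
Signal of each gene divided by the median signal of its array (log axis) on each of the 6 arrays, with circles for experiment 1, squares for experiment 2 and a grey line at the array median. IAA29 lies at 3.63 and 6.49 in air and below 1 on the 4 other arrays, and LBD29 lies at 0.243 and 0.0688 under anoxia and between 0.743 and 2.08 elsewhere.

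IAA29 encodes an Aux/IAA protein whose gene is a known target of phytochrome-interacting factors, which drive hypocotyl elongation in darkness and shade. Its signal was 167.9 in air in experiment 1 and 199.8 in experiment 2, or 3.63 and 6.49 times the array median. Under anoxia it was 15.7 and 26.6, or 0.347 and 0.831 times the median. Every air array was therefore above every anoxia array, whether or not signals are scaled.

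On the centred log2 scale the level of IAA29 was 1.88 ± 0.45 in air and -0.56 ± 0.55 under anoxia (SD, n = 2 each), a fall by 2.45 ± 0.39 (SE, 95% interval from -3.31 to -1.58). The adjusted p was 0.0437 in limma, and 5.34e-05 with the experiment as a block. Within experiments the change was -2.52 and -2.38. Only 0.151% of the tested probe sets had a lower change. With 1 of the 4 compared arrays left out, a group has 1 array, which is assumed to vary like the other groups, and limma called 4 or fewer of all tested probe sets in each such fit. The call of IAA29 was lost in each: the adjusted p was 0.103 and 0.19 when the fit left out the air array of experiment 1 or 2, and 0.579 and 0.145 when it left out the anoxia array of experiment 1 or 2, while the change stayed between -2.84 and -2.06. With a pseudocount of 1 the change was -3.11 (adjusted p = 0.126) and with 64 it was -1.54 (adjusted p = 0.00204).

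LBD29 encodes a protein of the LATERAL ORGAN BOUNDARIES domain family that the auxin response factors ARF7 and ARF19 switch on during lateral root formation. Its signal in air was 96.2 in experiment 1 and 44.5 in experiment 2. Under anoxia it was 11 and 2.2. Relative to the array median this is 2.08 and 1.44 in air against 0.243 and 0.0688 under anoxia, so that both anoxia arrays read below both air arrays.

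The centred level of LBD29 went from 0.61 ± 0.34 to -1.29 ± 0.15 (SD, n = 2 each), a fall by 1.90 ± 0.31 (SE, 95% interval from -2.59 to -1.21, adjusted p = 0.0487 in limma and 0.00053 with the block). The change was -2.03 in experiment 1 and -1.77 in experiment 2. Both anoxia signals were below 16, so the size of the fall depended on the pseudocount, with -3.44 at a pseudocount of 1 (adjusted p = 0.121) and -0.91 at 64 (adjusted p = 0.017). The adjusted p was 0.334 and 0.137 without the air array of experiment 1 or 2, and 0.408 and 0.404 without the anoxia array of experiment 1 or 2, with changes from -2.14 to -1.66. In bulk RNA from whole seedlings, fewer cells of a type and less RNA per cell cannot be told apart.

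LBD16, a relative of LBD29 with a role in the same step of lateral root formation, was the 1 gene with a matched probe set among 4 markers of the lateral root and pericycle. Its air arrays read 206.9 and 94.5, its anoxia arrays 112.8 and 50.2, and its sucrose arrays 148.4 and 107.3. Relative to the array median it ranged from 3.07 to 4.48 in air, from 1.57 to 2.49 under anoxia and from 2.12 to 7 with sucrose. Its change under anoxia was -0.77 ± 0.51 (adjusted p = 1), with -0.77 and -0.78 in the experiments. EXPA18, an expansin of root hairs, was at -0.86 ± 0.38 (adjusted p = 0.828), and the summed signal of EXPA7 and EXPA18, the 2 root hair markers with a probe set, was 0.727 to 1.40 array medians in air, 0.153 to 0.541 under anoxia and 0.470 to 1.40 with sucrose. The highest readings with sucrose, 7 for LBD16 and 1.40 for the root hair sum, came from the sucrose array of experiment 1. That is the array with high 3'/5' ratios. The part of such markers in the fall of LBD29 was not tested.

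IAA20 and IAA30 encode Aux/IAA proteins without the degron that the auxin receptor binds, and both genes are known targets of the response factor MONOPTEROS in root vascular tissue. IAA20 had signals of 159.2 and 137.7 in air and of 134.3 and 84.6 under anoxia, lower on both anoxia arrays, and 3.45 and 4.47 against 2.96 and 2.64 array medians once scaled. Its change was -0.42 ± 0.44 (95% interval from -1.41 to 0.57, adjusted p = 1), with -0.20 and -0.65 in the experiments.

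IAA30 was dim, with signals of 24.5 and 25.1 in air and 17.6 and 6.4 under anoxia, again lower on both anoxia arrays. Its change was -0.58 ± 0.30 (95% interval from -1.24 to 0.08, adjusted p = 0.925), with -0.25 in experiment 1 and -0.91 in experiment 2. These intervals leave room for a fall of more than 2-fold in either gene as well as for no change.

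IAA18 encodes an Aux/IAA protein known from mutants with altered cotyledons and lateral roots. Its signals of 230.1 and 250.5 in air and 219.5 and 182.9 under anoxia were 4.98 and 8.13 against 4.85 and 5.72 array medians once scaled, so the groups overlapped. The change was -0.25 ± 0.50 (95% interval from -1.36 to 0.86, adjusted p = 1).

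IAA34 encodes a noncanonical Aux/IAA protein that is known to be stabilised, not degraded, during auxin signalling in the apical hook of dark-grown seedlings. It had signals of 72.8 and 44.8 in air and 50 and 51.3 under anoxia. The groups overlapped, and the change of -0.15 ± 0.37 (95% interval from -0.96 to 0.67, adjusted p = 1) was downward in experiment 1 (-0.41) and upward in experiment 2 (0.11).

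IAA31 and IAA33, further family members without the canonical degron, were near the low end of the arrays. IAA31 read 7.8 and 7.4 on the air arrays, 0.8 and 14.9 on the anoxia arrays and 1.2 and 3.8 on the sucrose arrays. IAA33 read 3.4 and 8.1 on the air arrays, 12.6 and 4.9 on the anoxia arrays and 10.1 and 19 on the sucrose arrays. For both genes the anoxia and air arrays overlapped after scaling, and 5 of 6 signals of IAA33 and all 6 of IAA31 were below 16. No change was called in either gene: in a fit without the filter on low values each had an adjusted p of 1 in every comparison. At these low signals IAA33 read higher with sucrose without overlap of arrays, by 0.43 against anoxia and by 0.60 against air. The changes of IAA31 with sucrose were -0.18 and -0.24, with overlap.

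**Figure D2:**
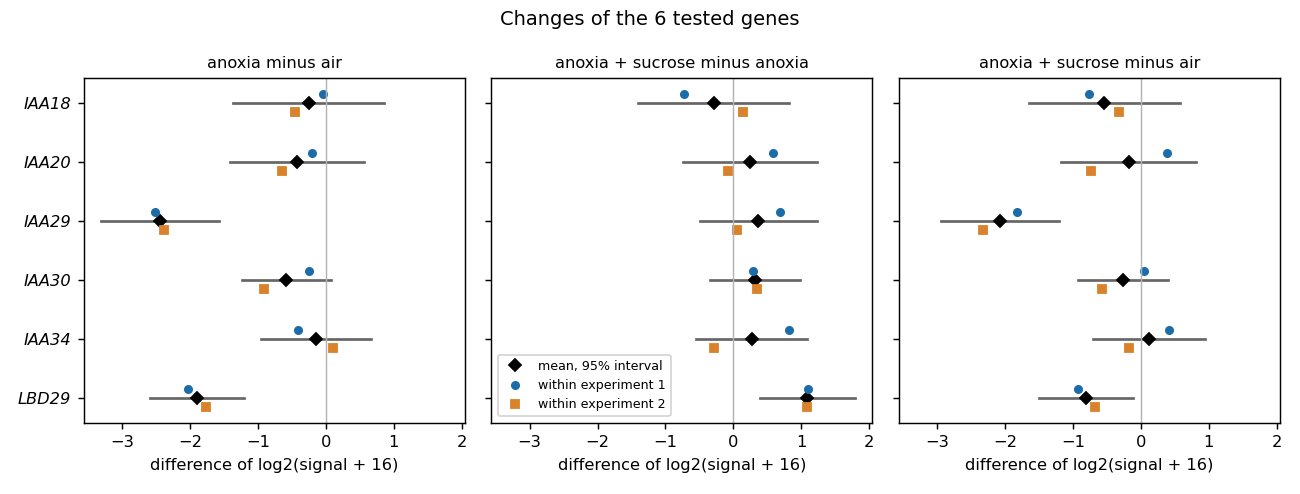
Differences of log2(signal + 16) between group means for the 6 tested genes in each comparison (diamonds, with 95% intervals from limma), with the difference within experiment 1 (circles) and experiment 2 (squares). The intervals of IAA29 and LBD29 lie below 0 for anoxia minus air, and the interval of LBD29 lies above 0 for sucrose, from 0.40 to 1.79, although its adjusted p was 1.

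The effect of 90 mM sucrose in the absence of oxygen was read from the anoxia groups with and without it. LBD29 was the gene with the largest difference of the 6, at 1.09 ± 0.31 (2.14-fold higher with sucrose), but no tested gene passed: 0 of 6 were called by limma, beside 0% of all tested probe sets, and 0 of 6 with the experiment as a block, beside 0.0188%. Of the 6 genes, 1 had an unadjusted p under 0.05, as did 161 of all 15922 probe sets. The median change of the 6 was 0.29, with 5 above 0, against -0.01 over all tested probe sets, 51.3% of which lay below 0. Groups did not overlap for 2 of the 6, both higher with sucrose, against 9.47% of all. Both experiments moved upward for 3 genes, against 25.6% of all. The anoxia arrays are shared with the comparison against air, so a low reading on them enters both.

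The signal of LBD29 with sucrose was 19.2 in experiment 1 and 37.6 in experiment 2, against 11 and 2.2 without sucrose. Scaled to the array median these are 0.906 and 0.743 against 0.243 and 0.0688, and the groups did not overlap. The centred level was -0.20 ± 0.17 with sucrose (SD, n = 2). The change was 1.10 within experiment 1 and 1.09 within experiment 2, and 99.4% of tested probe sets had a lower one. The unadjusted p was 0.00551, with adjusted p = 1 in limma, and 0.00107 with the block, with adjusted p = 0.546. The change was 0.98 with the sucrose array of experiment 1, the one with high 3'/5' ratios, left out. It was 2.38 at a pseudocount of 1 and 0.44 at 64, again not called (adjusted p = 1 for each).

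IAA29 stayed at a low reading with sucrose, at 15 and 45.5, or 0.708 and 0.899 array medians, on either side of the 0.831 of the anoxia array of experiment 2. Its change was 0.37 ± 0.39 (95% interval from -0.49 to 1.23, adjusted p = 1), with 0.69 in experiment 1 and 0.06 in experiment 2. Whether LBD29 and IAA29 differ in their response to sucrose was not tested.

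Among the other genes, IAA30 had signals of 9 and 23.5 with sucrose and a change of 0.32 ± 0.30 (95% interval from -0.34 to 0.98), with 0.29 and 0.35 in the experiments. IAA20, at 120.3 and 115.8, changed by 0.58 in experiment 1 and by -0.08 in experiment 2. IAA34, at 54.7 and 60.7, changed by 0.82 and -0.28, and IAA18, at 70.5 and 287.7, by -0.72 and 0.14. For IAA18, IAA20 and IAA34 the experiments thus went opposite ways. Without the sucrose array of experiment 1 the group difference of each changed its sign, to 0.19 for IAA18, -0.20 for IAA20 and -0.09 for IAA34.

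**Figure D3:**
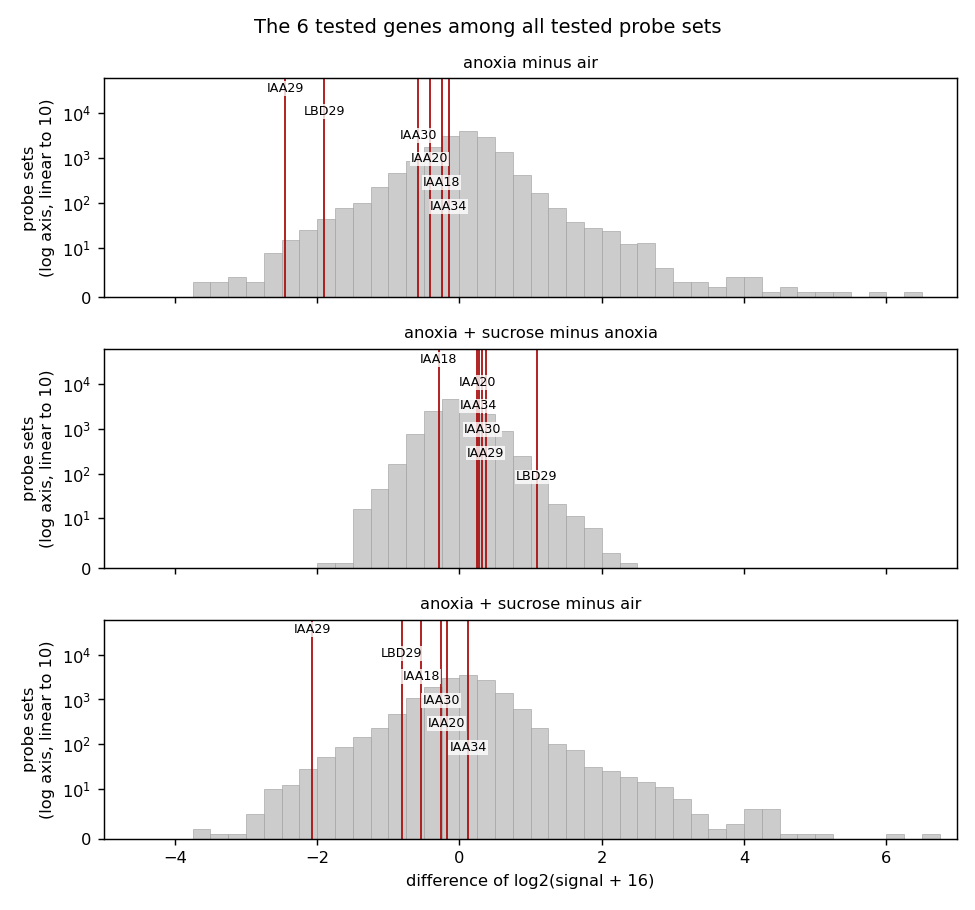
Number of tested probe sets (log axis, linear up to 10) by their difference of log2(signal + 16) in each comparison, in bins of 0.25, with red lines at the 6 tested genes. IAA29 and LBD29 lie in the lower tail for anoxia minus air, at -2.45 and -1.90, and LBD29 in the upper tail for sucrose, at 1.09.

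The anoxia group with sucrose was also set against air, where both treatments act at once, and the air arrays are those of the first comparison. No gene was called by limma (0 of 6, beside 0.251% of all tested probe sets), with an unadjusted p under 0.05 for 2 of the 6 and for 1075 of all. With the experiment as a block IAA29 was called lower, 1 of 6 beside 1.69% of all. IAA29 was at -2.07 ± 0.39 (95% interval from -2.94 to -1.21), with -1.83 and -2.32 in the experiments. Its adjusted p was 0.0672 in limma and 0.000285 with the block, and 0.0157 without the filter on low values. In limma it was 0.00682 with a pseudocount of 64 but 0.196 with a pseudocount of 1. Quantile normalization gave 0.121, scaling to a trimmed mean 0.127, no scaling 0.24 and no intensity trend 0.153.

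LBD29 was at -0.81 ± 0.31 against air (95% interval from -1.50 to -0.12, adjusted p = 0.582, and 0.164 with the block), with -0.93 and -0.68 in the experiments. Its 3 group levels were thus ordered air, anoxia with sucrose and anoxia, without overlap of arrays, and of the steps between them only that from air to anoxia passed the test. For IAA29 the order of means was the same, but the arrays of the groups under anoxia with and without sucrose overlapped. The other 4 tested genes lay between -0.54 (IAA18) and 0.12 (IAA34), with adjusted p from 0.937 to 0.989.

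Probe sets most like IAA29 and LBD29 were sought by Pearson correlation over the 6 arrays among 8730 other tested probe sets with a single gene. With so few arrays in 3 groups a high r was not limited to the genes named below: 157 probe sets (1.8%) exceeded r = 0.9 with IAA29 and 56 (0.641%) with LBD29. The genes below were picked for this likeness, so their pattern over the groups and their changes describe that choice and support nothing further. Closest to IAA29 were AT2G43860 (r = 0.9997), AT5G20885 (0.997), AT2G25250 (0.986), AT5G66330 (0.985) and AT5G14410 (0.984). All 5 were higher on both air arrays than on any of the 4 others. Of them AT2G43860, at -2.58 under anoxia, passed without the block (adjusted p = 0.0224), and AT5G20885, AT2G25250 and AT5G66330 passed with the block in limma, with adjusted p of 0.00791, 5.99e-05 and 0.0189.

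Closest to LBD29 were AT3G57450 (r = 0.996), AT3G27200 (0.990), AT1G61740 (0.988), TRM28 (0.9765) and PRN (0.968). On the centred log2 scale AT3G57450 read 4.16 and 3.75 on the air arrays, 2.34 and 2.01 on the anoxia arrays and 3.46 and 3.10 on the sucrose arrays, so that its arrays fell into the same order of groups as those of LBD29. Its change under anoxia was -1.78 (adjusted p = 0.33, and 0.0272 with the block in limma). TRM28, which belongs to a family of microtubule-recruiting proteins, was at -1.13 (adjusted p = 0.246, and 0.0343 with the block), and the other 3 passed neither way. Between IAA29 and LBD29 themselves r was 0.794.

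**Figure D4:**
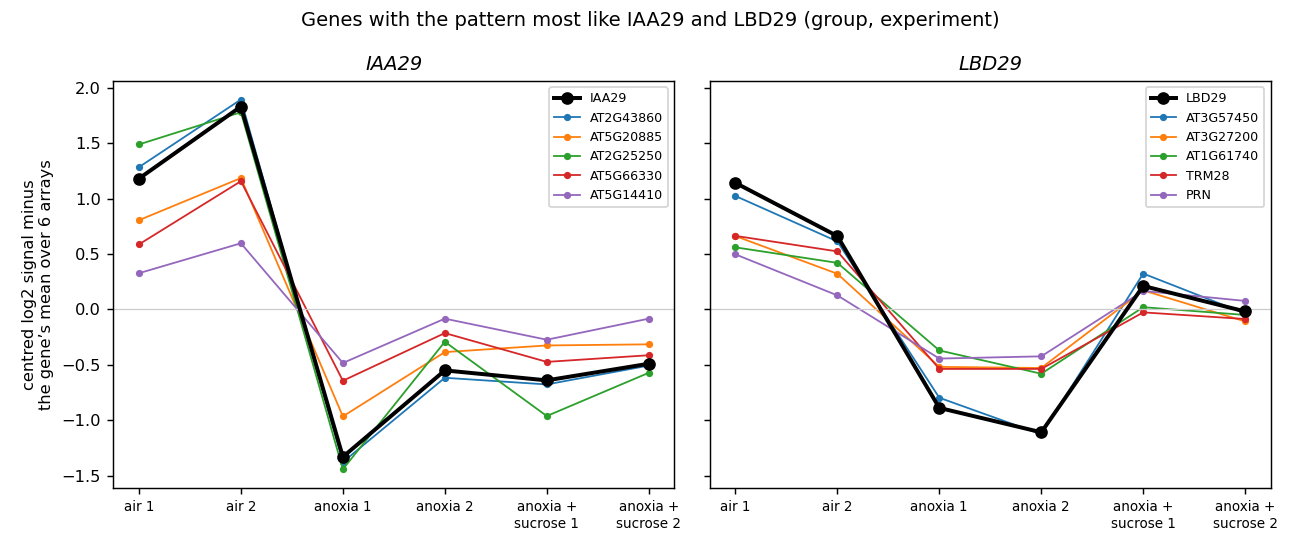
Centred log2 signal minus the mean over the 6 arrays for IAA29 and LBD29 (black) and for the 5 tested genes most correlated with each (colours), by group and experiment number. The genes beside IAA29 are high in air and low on the other 4 arrays, and those beside LBD29 are lowest under anoxia. Their sucrose arrays lie between anoxia and air except for PRN, where 1 sucrose array lies above 1 air array.

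Other genes of auxin biology were few on the matched probe sets. None of the 7 receptor and corepressor loci, the 15 response factor loci or the 13 transport loci has one, so they are not analysed here. GH3 enzymes join auxin to amino acids, and their genes are classical auxin-induced genes. Of 4 GH3 genes with a probe set 3 were tested, and in limma 0 passed in any comparison with or without the block. An unadjusted p under 0.05 was seen for 1 of them, GH3.3 with sucrose against air. Their median change under anoxia was 0.04.

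GH3.3 read 220.6 and 183.2 on the air arrays, 529.9 and 209.5 on the anoxia arrays and 433 and 491.5 on the sucrose arrays. It was at 0.68 ± 0.53 under anoxia (adjusted p = 1) and at 1.25 ± 0.53 with sucrose against air (adjusted p = 0.692), the opposite side of 0 from IAA29. WES1, another enzyme of this family, was at -0.44 ± 0.55 and GH3.17 at 0.04 ± 0.50 under anoxia (adjusted p = 1 for each). GH3.1 fell below the filter, reading 18.8 and 17.6 on the air arrays, 1.5 and 6.9 on the anoxia arrays and 3 and 4 on the sucrose arrays.

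YUC genes encode the flavin monooxygenases of auxin synthesis. YUC2, the 1 tested of 3 with a probe set, had signals from 14.1 to 46.6 and was at -0.07 ± 0.29 under anoxia (adjusted p = 1). Transcripts of auxin synthesis and conjugation with a tested probe set thus gave no call, whereas IAA29 and LBD29 did, but the difference between them was not tested.

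Genes of the cell wall and of the cell cycle bear on growth. Expansins and xyloglucan endotransglucosylases (XTH) act on the cell wall, and the list used here also holds expansin-like genes (EXLA and EXLB). Under anoxia 19 of the 20 tested genes of this list lay below 0, with a median of -0.64, beside 42.5% of all tested probe sets below 0. In limma 0 passed (7 had an unadjusted p under 0.05, as had 956 of all 15922), and 3 fell with the block (EXLA2, XTH33 and EXPB1), beside 1.58% of all. With sucrose against anoxia the median was 0.23 with 14 of 20 above 0, and in limma 0 passed with or without the block (1 with an unadjusted p under 0.05 without it). With sucrose against air the median was -0.36 with 15 of 20 below 0, beside 44.5% of all tested probe sets. In limma 0 passed there (5 had an unadjusted p under 0.05), and 5 fell with the block (EXPA4, EXLA2, XTH33, XTH16 and EXPB1), beside 1.69% of all. The mitotic kinase genes AUR1 and AUR2, the 2 cell cycle genes of the list matched in the annotation used, were at -0.12 ± 0.35 and -0.14 ± 0.35 under anoxia (adjusted p = 1 for each).

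**Figure D5:**
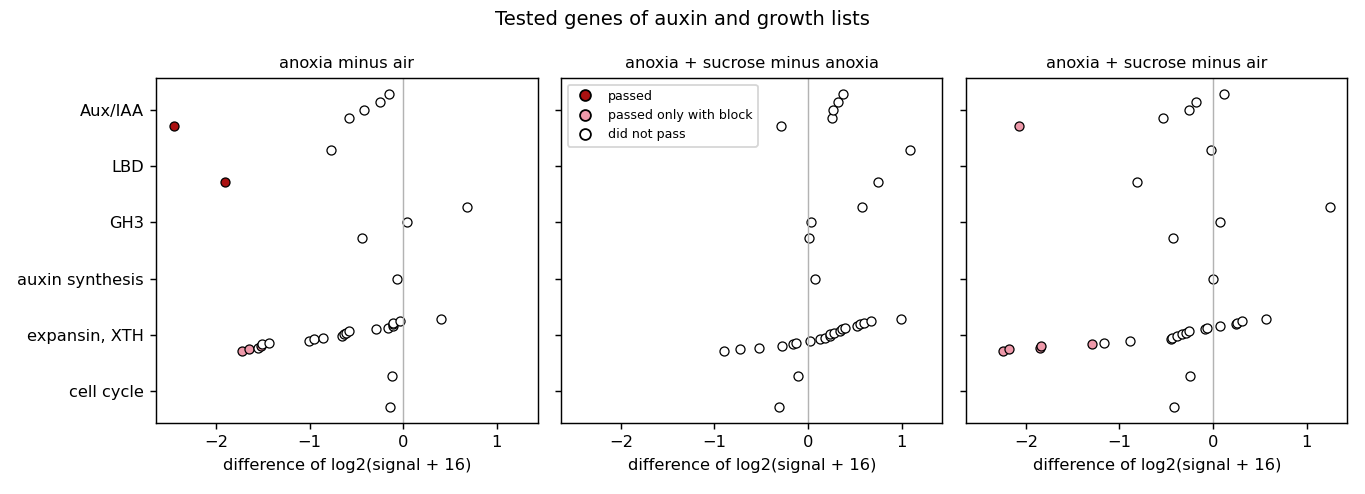
Differences of log2(signal + 16) for every tested gene of the Aux/IAA, LBD, GH3, auxin synthesis, expansin and XTH, and cell cycle lists, 1 point per gene, in each comparison. Filled red points passed limma, pink points passed only with the experiment as a block, and open points did not pass. IAA29 and LBD29 are the 2 red points, at -2.45 and -1.90.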

How the data were processed

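Total RNA of 6 seedling samples was read on Affymetrix arrays. Per the labels, the standard Affymetrix protocol was used on RNA pooled over 4 cultures. The authors deposited a linear intensity for every probe set. How probes were summarised, corrected for background and scaled is not given in the sources used here, and no detection calls were used. The number of arrays limits the precision. The labels call the experiments independent, and p-values measure the spread between these arrays. For each probe set limma draws this spread toward that of other probe sets of like intensity, so it is not that of the gene alone.

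From the 22810 probe sets, 64 controls were removed. To the others 16 was added before log2, and array medians were set to 0. Probe sets with means at or above the 30th percentile (15922) were tested with limma (version 3.58.1, R 4.3.3) over all 6 arrays, 1 coefficient per group, eBayes (intensity trend on), two-sided tests, and 3 residual and 6.97 prior degrees of freedom (2 and 17 with the block). The steps were run on simulated arrays with planted changes. These had the same normal spread for every probe set and changes only in probe sets above the filter. They therefore do not show how the steps fare on arrays of unequal quality. The main fit left the experiment numbers out. They were treated as pairing in the block and in the changes within experiments, since the titles call them experiments. Differences between replicates correlated across probe sets at r = 0.383 (air and anoxia), 0.392 (air and sucrose) and 0.562 (anoxia and sucrose).

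Gene names come from the platform annotation, and all 8 genes matched a RefSeq locus (TAIR10.1, used for names only). The genes and lists were chosen with earlier results of these data known. By the naming rule, all 8 were described, related genes were named where they passed with or without the block or, up to 4 per list, as examples, and the 5 tested genes most correlated with IAA29 and LBD29 were named. Wall and cell cycle lists were to be given as counts, and AUR1 and AUR2, EXPA7 and EXPA18, and the wall genes that passed are named besides. Alternatives were a pseudocount of 1 or 64, a filter at the 50th percentile or none, quantile normalization, scaling to a 2% trimmed mean, no scaling, no intensity trend, fits to only the arrays compared, a block for the experiment, fits that left out 1 array, and a threshold of 0.01.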

Additional observations from a re-analysis of the deposited data

How the results depend on the processing

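Of 360 values of single genes under an alternative, 328 kept their direction and side of the threshold (for untested genes, moved less than the replicate spread). This count is no measure of robustness. Another filter, no trend, the block or the loss of an array outside the comparison leaves the change itself as it was. Genes far from the threshold had little room to cross it. The fall of IAA29 and LBD29 under anoxia kept its direction under every alternative run, but the number of the 6 genes called, 2, became 0 with a pseudocount of 1, quantile normalization, scaling to a trimmed mean, no scaling, no intensity trend or a threshold of 0.01, and 1 with a filter at the 50th percentile, which leaves LBD29 out. It lay between 0 and 2 when 1 array was left out. With sucrose against air the count of 0 became 1 (IAA29) with a pseudocount of 64, no filter, or the replicate block. The block changed no other call of these genes. With sucrose against anoxia 0 were called under every alternative.

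Over all probe sets, 37 were called for anoxia against air. The count was 2 and 82 with pseudocounts of 1 and 64, 88 without a filter, 23 with quantile normalization, 24 with trimmed mean scaling, 14 without the trend, 82 with only the arrays compared, 404 with the replicate block, 1 at a threshold of 0.01, and 0 to 81 when 1 array was left out. For sucrose against air it was 40, and 14 and 99, 118, 22, 20, 17, 527, 1 and 0 to 71 under the same alternatives other than trimmed mean scaling. For sucrose against anoxia it was 0, and 3 with the block. The cause was not tested, except that a stricter threshold gives fewer calls by construction.

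For the tested genes, signs turned only when an array was left out. Under anoxia IAA18 ranged from -0.51 to 0.01 and IAA34 from -0.34 to 0.04. With sucrose against anoxia IAA18 ranged from -0.78 to 0.19, IAA20 from -0.20 to 0.69, IAA29 from -0.02 to 0.76 and IAA34 from -0.09 to 0.63. With sucrose against air IAA20 ranged from -0.62 to 0.27 and IAA34 from -0.24 to 0.48. Leaving the arrays unscaled moved the median of all probe sets between sucrose and anoxia from -0.01 to -0.14. Signals near or below 16 (IAA30, IAA31, IAA33, LBD29 under anoxia, and IAA29 under anoxia with and without sucrose) limit what these arrays can show.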
